A study of Mus musculus with 3 samples.

Results

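The transcripts of p53 and of genes that answer to it were followed in 3 bulk RNA-Seq libraries of maxillary processes, the paired outgrowths of the embryonic face that give rise to the upper jaw. The genes were chosen by name, and 10 of the 55401 genes counted were taken. They are *Trp53*, its inhibitors *Mdm2* and *Mdm4*, the cell cycle targets *Cdkn1a* and *Ccng1*, the cell death targets *Bax*, *Bbc3* and *Pmaip1*, and the survival genes *Bcl2l1* and *Mcl1*. Every library, numbered replicate 1 to 3 in the order of deposit, came from E10.5 embryos of the genotype *wnt1cre; Rosa26Dlx2/-* (OE), in which Cre expressed under *wnt1* control removes a stop cassette and switches on a *Dlx2-3xFlag* transgene, driven by the CAG promoter at *Rosa26*, in neural crest cells and their descendants. Cells of other origin in the same dissection, such as epithelium, endothelium and blood, are not targeted by this Cre. The number of embryos in each of the 3 RNA samples is not given in the sources used here. Libraries of wild-type embryos were not analysed here, and therefore no value below is a difference between genotypes, and all 3 libraries share Cre, transgene, stage and tissue.

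p53 is a transcription factor that is kept low at the protein level by MDM2, a ubiquitin ligase, and by its relative MDM4. When DNA is damaged or ribosome production fails, this brake is released, and p53 raises genes that stop the cell cycle and genes that permeabilise mitochondria. Neural crest cells are known to be sensitive to this pathway, and crest loss through p53 underlies the facial defects of several disorders of ribosome production. Since p53 is controlled mainly as a protein, a transcript level of *Trp53* is not a measure of its activity, and the targets named here also answer to other regulators.

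Replicate 1 had 36544554 counts on genes, replicate 2 had 35351031 and replicate 3 had 40057435, and values are given as counts per 1000000 scaled with edgeR's TMM factors (CPM). *Dlx2* itself was at 235, 201 and 183 CPM in replicates 1, 2 and 3. Of 10 facial mesenchyme markers none was at 0 in all libraries, and their summed level was 2204, 2326 and 2485 CPM. The libraries differed in other tissues. A list of 9 neuron markers summed to 273 CPM in replicate 1 against 24.3 and 35.9, and a list of 7 eye markers summed to 21.5 CPM in replicate 1 against 148 and 216. Replicate 1 also differed in transcripts that mark sex. *Xist*, made from the inactive X chromosome of females, was at 671 CPM in replicate 1 against 0.309 and 0.557, and the Y-linked *Ddx3y* had 0 counts in replicate 1 against 44.2 and 28.7 CPM. Sex and the other differences of replicate 1 cannot be told apart here. In bulk tissue, fewer cells of a type and less RNA per cell cannot be told apart. Replicate 3 held more counts of short genes. The median difference in log2(CPM + 1) between replicate 3 and the mean of the others was 0.36 for genes of up to 2000 exonic bases and -0.51 for genes of over 8000. For the 10 genes, exonic length is therefore given beside the differences between libraries that are described.

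The sequence before the start of these genes was examined for the site p53 recognises, which is built of paired half-sites. A half-site was taken as 3 purines, C, A or T at each of 2 places, G and 3 pyrimidines, a pattern of 10 letters that reads as itself on both strands. RefSeq start windows of 300 bases (250 before to 50 after a start, build GRCm38.p6) were at hand for 9 of the 10 genes, with *Pmaip1* missing. At least 1 half-site stood in a window of 5 of these 9 genes, against 9.55% of all 27025 genes with a window, and in 5 of their 15 windows, against 8.36% of all 32851. A pair of half-sites with at most 13 bases between them stood before *Cdkn1a* alone among the 9, against 0.074% of all genes. The runs below hold the half-sites in capitals with 15 bases on either side and are shown on the strand of the gene. They lie between annotated genes, except that of *Bax*, which lies in an intron of *Gm45808*.
Trp53, plus strand, chr11:69580269-69580308: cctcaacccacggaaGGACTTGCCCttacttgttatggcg
Mdm2, minus strand, chr10:117710920-117710959: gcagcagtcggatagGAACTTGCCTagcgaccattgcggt
Ccng1, minus strand, chr11:40755447-40755486: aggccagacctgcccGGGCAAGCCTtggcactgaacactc
Bax, minus strand, chr7:45467075-45467114: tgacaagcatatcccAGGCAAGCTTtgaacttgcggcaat
Cdkn1a, plus strand, chr17:29090891-29090952: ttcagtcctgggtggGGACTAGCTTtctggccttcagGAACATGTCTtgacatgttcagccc
The 2 half-sites marked before *Cdkn1a* are 12 bases apart and belong to the upstream of its 2 start windows, while the downstream window holds none. The 10 letters directly after GAACATGTCT, tgacatgttc, miss the pattern only at their first letter and so were not marked. Which of these stretches form a site together was not tested. The windows of *Mdm4*, *Bcl2l1*, *Mcl1* and *Bbc3* hold no match to these letters. These matches are letters in a window, and binding was not measured here.

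All 10 genes were detected, at 1 CPM or more in every library, as were 75.3% of the 17115 genes tested, which had a mean of 10 or more counts. *Trp53* was the most abundant of them and *Pmaip1* the least. To compare levels between genes, CPM was divided by each gene's exonic length in 1000 bases (CPM per kb). The median of the 10 genes was 11.7 CPM per kb, against 3.45 over all genes tested, and they ran from percentile 33.0 for *Pmaip1* to percentile 96.7 for *Trp53*. With the longest protein-coding transcript as the length their median was 18.5, and the median over all genes at that length is not given here. In descending order the genes were *Trp53* (80.1 ± 4.57 CPM per kb, SD, n = 3), *Mcl1* (62.0 ± 8.32), *Bax* (22.1 ± 11.97), *Bcl2l1* (15.5 ± 2.66), *Mdm2* (13.8 ± 1.81), *Ccng1* (9.60 ± 3.501), *Mdm4* (7.02 ± 1.30), *Bbc3* (6.49 ± 2.39), *Cdkn1a* (3.82 ± 2.39) and *Pmaip1* (1.24 ± 0.396). Neighbours in this order were called apart where the log2 difference had 1 sign in all 3 libraries and a mean above its SD. By this rule 5 of the 9 neighbouring pairs were apart, namely *Trp53* over *Mcl1*, *Mcl1* over *Bax*, *Mdm2* over *Ccng1*, *Ccng1* over *Mdm4* and *Cdkn1a* over *Pmaip1*. The pairs it did not separate were *Bax* and *Bcl2l1*, *Bcl2l1* and *Mdm2*, *Mdm4* and *Bbc3*, and *Bbc3* and *Cdkn1a*. The order of *Ccng1* and *Mdm4* turned with the length used, since *Mdm4* stood above *Ccng1* when the longest protein-coding transcript replaced merged exons. With 3 libraries a sign-flip test cannot give a p under 0.25, so none was made.

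**Figure D1:**
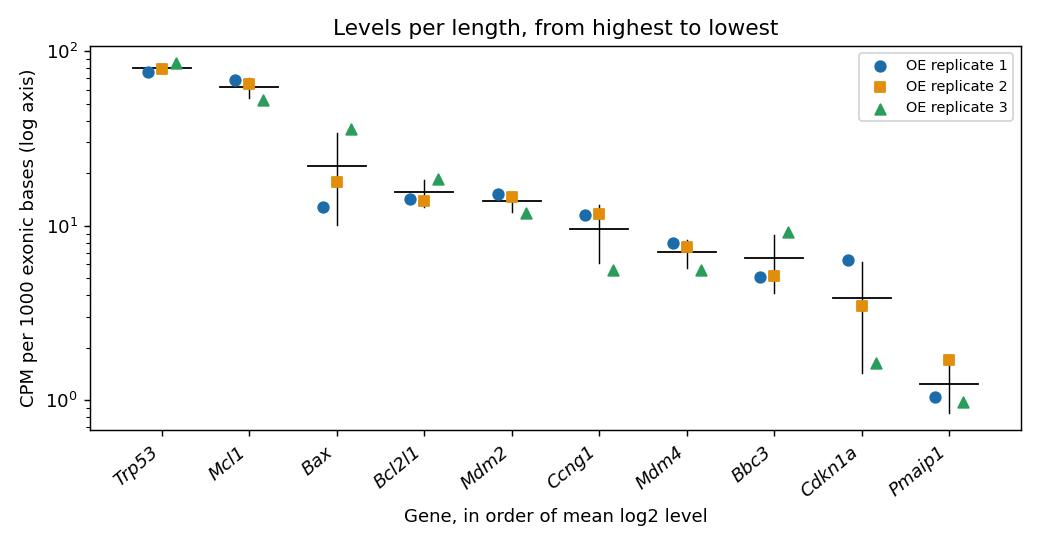
Level of each of the 10 genes in CPM per 1000 exonic bases (log axis), from highest to lowest, with a point for each OE library and a horizontal line and vertical bar for the mean and SD (n = 3). *Trp53* and *Mcl1* stand above the other 8 genes in every library, while the points of *Bax*, *Bcl2l1* and *Mdm2* interleave.

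Whether the libraries differed by more than sampling noise was asked for each gene with a chi-square test of its 3 counts against the scaled library sizes, adjusted by Benjamini-Hochberg over all 17115 genes. All 10 genes passed at 0.05, as did 81.5% of all genes tested, so passing it does not set the 10 genes apart. Without replicate 3 the count fell to 6 of 10, against 48.8% of all genes, and *Mdm2*, *Ccng1*, *Bbc3* and *Bcl2l1* no longer passed. Only 5 of the 10 genes had a ratio of 1.5 or more between their highest and lowest library, against 62.2% of all genes. The highest library was replicate 1 for 4 of the 10, replicate 2 for 2 and replicate 3 for 4, against 39.6%, 17.2% and 43.2% of all genes. This tally moved with the scaling, to 5, 1 and 4 with DESeq2 size factors, where *Ccng1* turned to replicate 1, and to 6, 1 and 3 with total counts, where *Trp53* did so too. The shares of all genes given here are for TMM only, so these moved tallies have none to be read against. The test compares libraries of 1 genotype, and its reference is counting error alone.

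**Figure D2:**
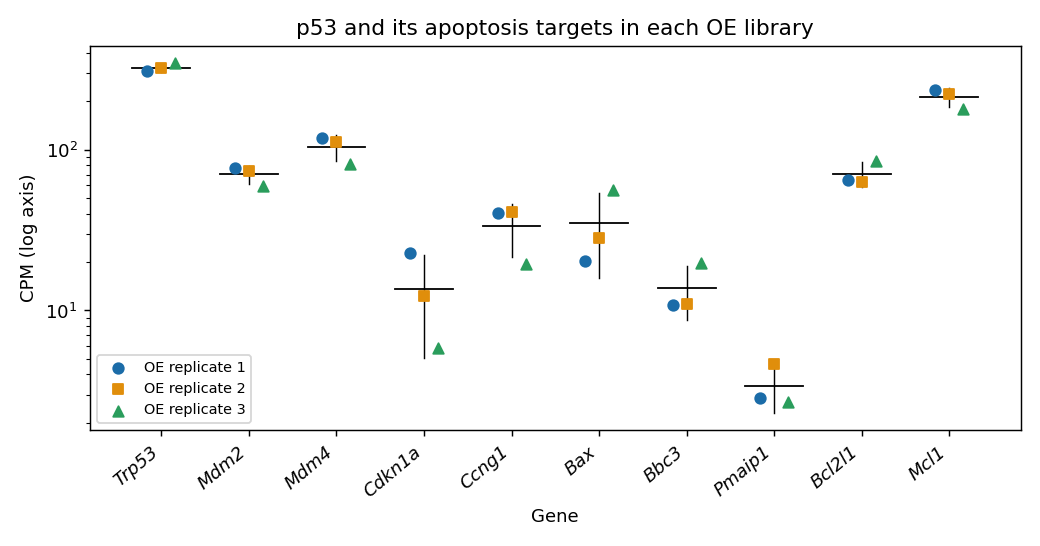
CPM (log axis) of each of the 10 genes in the 3 OE libraries, with the mean as a horizontal line and the SD as a vertical bar (n = 3). *Trp53* varies least, from 307 to 344 CPM, and *Cdkn1a* most, from 5.81 to 22.7 CPM.

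*Trp53* (ENSMUSG00000059552, chromosome 11, 69580359 to 69591873, plus strand) has 4045 exonic bases and had 11867, 11426 and 12961 counts in replicates 1, 2 and 3, or 307, 321 and 344 CPM. Its coefficient of variation, the SD as a share of the mean, was 5.71%, at percentile 6.497 of all genes tested, whose median was 27.0%. The order of the libraries depended on the scaling. Replicate 3 was highest with TMM and with DESeq2 size factors, but with total counts as the only scaling the values were 325, 323 and 324 CPM, replicate 1 was highest, and the 3 counts no longer differed beyond counting noise (adjusted p = 0.937, chi-square test). *Trp53* shares no exonic base with another annotated gene. The processed pseudogene *Trp53-ps* on chromosome 17 had 5, 7 and 10 counts.

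The other family genes were lower and more variable. *Trp63*, which encodes a p53 family factor of epithelial stem cells, was at 55.4, 29.6 and 11.4 CPM in replicates 1, 2 and 3, a ratio of 4.85 between highest and lowest library, and has 8391 exonic bases. *Trp73*, the third gene of the family, was at 0.674, 0.590 and 1.62 CPM. Per exonic length *Trp63* reached 3.83 ± 2.64 and *Trp73* 0.174 ± 0.103 CPM per kb (SD, n = 3), against 80.1 for *Trp53*.

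Both inhibitors of p53 were well expressed and both were lowest in replicate 3. *Mdm2* (ENSMUSG00000020184, chromosome 10, 117688875 to 117710758, minus strand), the ligase that marks p53 for destruction and is itself a p53 target, was at 77.1, 73.7 and 59.7 CPM. *Mdm4* (ENSMUSG00000054387, chromosome 1, 132959484 to 133030561, minus strand), which binds and blocks p53 without degrading it alone, was at 118, 111 and 82.0 CPM. Replicates 1 and 2 lay close together for each gene, with replicate 3 apart. *Mdm2* and *Mdm4* have 5083 and 14798 exonic bases, and their log2 differences in replicate 3 were -0.33 and -0.48, beside medians of -0.19 and -0.51 for all genes of their length classes (4000 to 8000 bases and over 8000). Once the dependence on length and base composition had been fitted as a smooth curve and taken off, the differences were -0.02 and 0.21, so that of *Mdm4* changed sign. Within a library, the ratio of *Mdm2* to *Trp53* in CPM per kb was 0.199, 0.183 and 0.138, and the ratio of *Mdm4* to *Mdm2* was 0.527, 0.518 and 0.472. The latter varied little, at 0.506 ± 0.0297 (SD, n = 3).

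*Cdkn1a* (ENSMUSG00000023067, chromosome 17, 29090976 to 29100727, plus strand) was the most variable of the 10 genes. It encodes p21, an inhibitor of cyclin-dependent kinases that halts cells in G1, and its upstream window holds the pair of half-sites printed above. It had 875, 437 and 219 counts in replicates 1, 2 and 3, or 22.7, 12.3 and 5.81 CPM, a ratio of 3.90. Every library was well apart from the next, and the coefficient of variation of 62.6% lay at percentile 90.2 of all genes tested. The mean was 13.6 ± 8.50 CPM (SD, n = 3) and 8.80 without replicate 1. Its log2 difference was 1.32 in replicate 1 and -1.38 in replicate 3, and with that curve taken off 1.45 and -1.57. Of its 3553 exonic bases 273 are shared with *AC167363.2* on the other strand, which had 0, 3 and 0 counts.
*Ccng1* (ENSMUSG00000020326, chromosome 11, 40748552 to 40755311, minus strand), which encodes cyclin G1, a direct p53 target that acts back on MDM2, has 3512 exonic bases and was at 40.7, 41.0 and 19.5 CPM. Replicates 1 and 2 were nearly equal, and without replicate 3 the counts did not differ beyond counting noise (adjusted p = 0.882, chi-square test). The low value of replicate 3, with a log2 difference of -1.03, stood beside a median of 0.11 for genes of 2000 to 4000 bases, and was -0.70 after the trend was removed. The ratio of *Cdkn1a* to *Ccng1* in CPM per kb was 0.551 in replicate 1 and 0.296 and 0.295 in replicates 2 and 3, so the pair parted in replicate 1 alone.

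**Figure D3:**
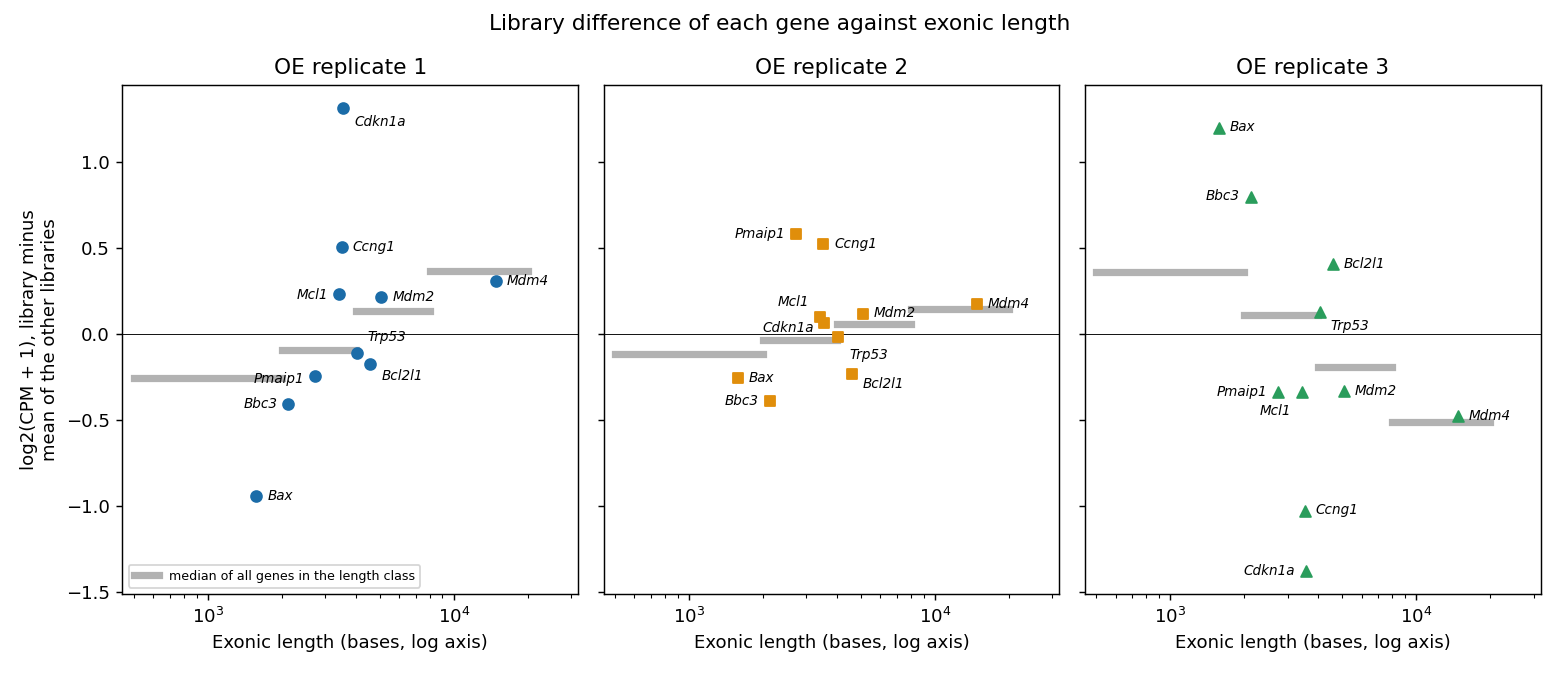
Difference in log2(CPM + 1) between 1 library and the mean of the others (vertical axis) for the 10 genes against exonic length in bases (log axis), in a panel for each OE library. Grey bars give the median of all genes tested in each length class, 0.36 for the shortest and -0.51 for the longest class in replicate 3. *Cdkn1a* and *Ccng1* lie far below the bar of their class in replicate 3, while *Mdm4* lies on it.

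Of the cell death targets, *Bax* and *Bbc3* were highest in replicate 3 and *Pmaip1* in replicate 2. *Bax* (ENSMUSG00000003873, chromosome 7, 45461697 to 45466898, minus strand), whose product forms the pores that open the outer mitochondrial membrane, was at 20.2, 28.1 and 56.1 CPM in replicates 1, 2 and 3. *Bbc3* (ENSMUSG00000002083, chromosome 7, 16308393 to 16318205, plus strand), which encodes the BH3-only protein PUMA, was at 10.8, 10.9 and 19.6 CPM. *Pmaip1* (ENSMUSG00000024521, chromosome 18, 66458533 to 66465565, plus strand), which encodes the BH3-only protein NOXA, was at 2.85, 4.64 and 2.68 CPM, from 110, 165 and 101 counts over 2732 exonic bases. Replicates 1 and 2 were nearly equal for *Bbc3*, and replicates 1 and 3 for *Pmaip1*. *Bax* has 1576 exonic bases, and its log2 difference in replicate 3 of 1.20 stood beside a median of 0.36 for its length class, and was 0.49 after the trend was removed. *Bbc3* has 2124, and its difference of 0.80 stood beside 0.11 and was 0.17 after removal. *Bax* shares 192 of its exonic bases with *Gm45808*, a longer gene of the same strand with 0 counts in every library, and reads there cannot be given to 1 of them by position alone. *Pmaip1* no longer differed beyond counting noise without replicate 2 (adjusted p = 0.686, chi-square test). The ratio of *Bbc3* to *Pmaip1* in CPM per kb was 4.88, 3.02 and 9.42.

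The survival genes were both abundant. *Mcl1* (ENSMUSG00000038612, chromosome 3, 95658788 to 95663176, plus strand), a short-lived protector of mitochondria, was at 235, 221 and 180 CPM in replicates 1, 2 and 3. *Bcl2l1* (ENSMUSG00000007659, chromosome 2, 152780668 to 152831728, minus strand), which encodes BCL-XL, was at 65.0, 63.2 and 85.2 CPM. Replicate 3 was the lowest library for *Mcl1* and the highest for *Bcl2l1*. The ratio of *Mcl1* to *Bcl2l1* in CPM per kb was accordingly 4.85 and 4.68 in replicates 1 and 2 and 2.84 in replicate 3. With the longest protein-coding transcript as the length, its mean was 2.31 in place of 4.12 ± 1.12 (SD, n = 3). The log2 differences in replicate 3 were -0.34 for *Mcl1* (3418 exonic bases) and 0.41 for *Bcl2l1* (4586), and both had a sign opposite to the median of their length class. The ratio of *Bax* to *Bcl2l1*, an effector of death to a survival gene, was 0.904, 1.30 and 1.92 in replicates 1, 2 and 3, and so lay on either side of 1.

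Other members of the Bcl-2 family were set beside these genes. The effectors *Bak1* and *Bok* were at 19.7 ± 5.23 and 14.3 ± 5.97 CPM per kb (SD, n = 3), and like *Bax* both were highest in replicate 3, at 62.0 and 38.7 CPM. They have 2407 and 1840 exonic bases, and their log2 differences in replicate 3 of 0.61 and 0.92 were 0.16 and 0.28 after the trend was removed. The ratio of *Bax* to *Bak1* was 1.07 ± 0.306. Other annotated genes share 12.2% and 25.5% of their exonic bases, where reads cannot be given to 1 gene by position alone. *Bcl2*, the founder of the family, was at 1.94 ± 0.367 CPM per kb, a ratio to *Bcl2l1* of 0.130 ± 0.0411. Of the BH3-only genes, which sense damage and set off the effectors, *Bmf* at 10.9 ± 1.75 and *Bad* at 10.8 ± 4.71 CPM per kb had nearly the same mean level, both above that of *Bbc3*. *Bad* shares 20.5% of its exonic bases with other annotated genes and *Bmf* 0%. *Bad* (2558 exonic bases) was at 18.3, 23.3 and 41.2 CPM and *Hrk* at 9, 13 and 7 counts. Of 10 further family genes 9 were tested. Of the 9, 8 reached 1 CPM in each library, beside 75.3% of all genes tested, and 8 differed beyond counting noise, beside 81.5%. Neither count sets the family apart.

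**Figure D4:**
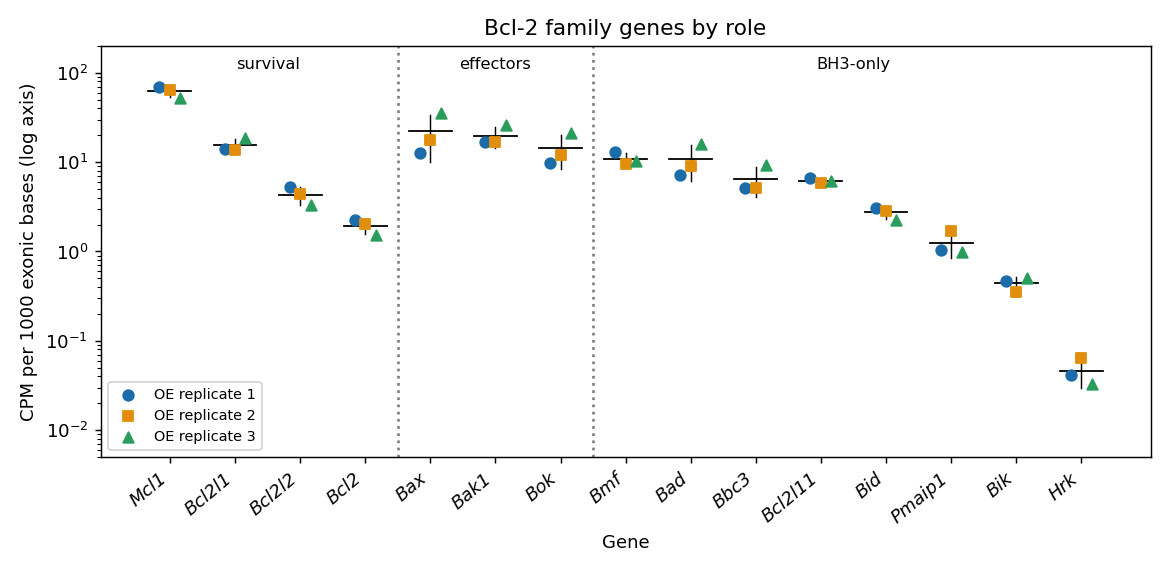
CPM per 1000 exonic bases (log axis) of 15 Bcl-2 family genes in the 3 OE libraries, grouped as survival genes, effectors and BH3-only genes, with the mean as a horizontal line and the SD as a vertical bar (n = 3). *Mcl1* stands above all others in every library, and the 3 effectors are each highest in replicate 3.

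The wider pathway was described with 60 genes in 6 lists. The median of the 60 was 5.90 CPM per kb, beside 3.45 over all genes tested. Of the 57 that were tested, 53 reached 1 CPM in each library, beside 75.3% of all genes tested. Beyond counting noise 51 of the 57 differed, beside 81.5% of all genes. The 7 genes below 1 CPM in some library, named after their values were seen, were *Trp73*, *Cdkn2a*, *Eda2r*, *Fas*, *Dram1*, *Bik* and *Hrk*.
Among 15 regulators of p53, *Rpl11* and *Rpl5*, ribosomal proteins that bind MDM2 when free of the ribosome, were the most abundant at 377 ± 210 and 360 ± 129 CPM per kb (SD, n = 3). Both were highest in replicate 3, where *Rpl11* (2697 exonic bases) stood at 1664 CPM against 609 and 776. Other annotated genes share 26.7% of the exonic bases of *Rpl5*. *Usp7*, a deubiquitinase of MDM2 and p53, followed at 30.2 ± 6.05 CPM per kb. The damage kinase gene *Atm* was at 38.5, 31.2 and 6.88 CPM and the acetyltransferase gene *Ep300* at 95.9, 77.3 and 32.6 CPM. Both have over 8000 exonic bases, and their log2 differences in replicate 3 of -2.18 and -1.37 were -1.52 and -0.98 after the trend was removed. *Cdkn2a*, whose ARF product restrains MDM2, had 0, 1 and 0 counts, where 0 counts allow up to 0.0777 CPM in replicate 1 and 0.0796 CPM in replicate 3.
Of 15 further targets in arrest and repair, all reached 1 CPM in each library, beside 75.3% of all genes tested, and 13 differed beyond counting noise, a share close to the 81.5% of all genes. *Gtse1*, *Sfn* and *Phlda3* had the highest levels, at 30.3 ± 1.28, 22.1 ± 8.14 and 17.6 ± 2.28 CPM per kb (SD, n = 3). *Trp53inp1* (25.4, 14.5 and 7.78 CPM) and *Rrm2b* (8.19, 5.14 and 2.60 CPM) varied most between libraries and, like *Cdkn1a*, were highest in replicate 1 and lowest in replicate 3. With 6475 and 9134 exonic bases, their log2 differences in replicate 3 of -1.20 and -1.06 were -0.64 and -0.38 after the trend was removed. Over this list 11 of 15 genes were highest in replicate 1, against 39.6% of all genes tested, and 4 of the 10 main genes were.
Of 8 further cell death targets 7 were tested, and 5 of the 7 were at 1 CPM or more throughout, beside 75.3% of all genes tested. *Ei24*, *Pidd1* and *Aen* led at 18.9 ± 1.66, 14.1 ± 3.83 and 13.1 ± 1.38 CPM per kb (SD, n = 3), and *Pidd1* (4528 exonic bases) was at 48.2, 61.4 and 82.6 CPM. Downstream, *Birc5* and *Cycs*, which encode survivin and cytochrome c, were at 47.3 ± 14.3 and 41.2 ± 3.76 CPM per kb. *Xiap* and *Apaf1*, at 75.2, 59.3 and 27.3 CPM and at 56.5, 45.3 and 27.05 CPM, had the largest ratios in that list. Both have over 8000 exonic bases, and their log2 differences in replicate 3 of -1.26 and -0.88 were -0.60 and -0.37 after the trend was removed.

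A pair of p53 list genes of known epithelial expression, set beside *Cdkn1a* after their values were seen, were also highest in replicate 1 and lowest in replicate 3. *Perp* (1952 exonic bases), a p53 and p63 target needed for cell adhesion in epithelia, was at 32.1, 19.7 and 10.01 CPM in replicates 1, 2 and 3, and *Trp63* was given above. *Sfn*, a p53 target of epithelia in the same lists, did not have this order and was highest in replicate 3, at 50.8 CPM against 28.7 and 27.5. Nor is the order particular to epithelial genes, since *Trp53inp1*, *Atm* and *Xiap* had it too. The order of the epithelial markers depended on the scale. In CPM, *Epcam* (66.6, 45.8 and 30.3 CPM) and *Cdh1* (48.1, 32.5 and 13.4 CPM) had this order too, *Krt8* was highest in replicate 1, and *Krt18*, *Krt14* and *Krt5* were highest in replicate 3. With the trend on length and base composition taken off, 5 of the 6 were highest in replicate 1, all but *Krt5*, and *Epcam*, *Cdh1*, *Krt8* and *Krt14* ran in the order of *Cdkn1a*. The difference of *Krt18* (1437 exonic bases) then went from 0.04 to 0.44 in replicate 1 and from 0.52 to -0.04 in replicate 3. The median difference of the 6 markers after removal was 0.70, -0.09 and -0.37 in replicates 1, 2 and 3. *Sfn* stayed highest in replicate 3 after removal, at 0.18 against 0.08 in replicate 1. The 6 markers summed to 302, 211 and 237 CPM, and none was at 0. *Cdkn1a* was also highest in the library with the most counts of neuron markers, at 273 CPM in sum. The differences of *Cdkn1a* were as large once the trend on length was taken off, as given above. The part of epithelium, neurons or sex in its level was not tested. 

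**Figure D5:**
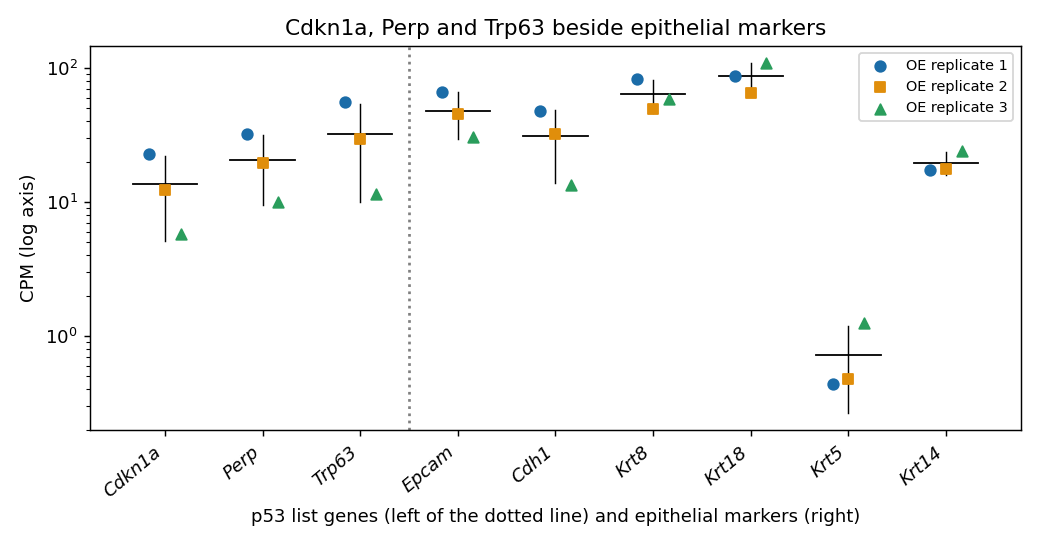
CPM (log axis) of *Cdkn1a*, *Perp* and *Trp63* (left of the dotted line) and of 6 epithelial markers (right) in the 3 OE libraries, with the mean as a horizontal line and the SD as a vertical bar (n = 3). On this scale *Epcam* and *Cdh1* share the order of the 3 genes on the left, and *Krt8*, *Krt18*, *Krt5* and *Krt14* do not, while *Krt8* and *Krt14* have it too once the trend on length and base composition is taken off.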

How the data were processed

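The 3 poly(A)-selected libraries of 1 group were analysed (150 bp paired-end reads). The authors mapped reads to mm10 with STAR 2.7.3a and deposited raw counts per gene without normalization, and the submitters' processing notes also name HTSeq 0.12.4. The strand setting and the annotation release are not given in the sources used here. Rows that name no gene held 14.2% to 16.4% of counted reads and were left out. The 10 genes and all lists were chosen with earlier results of these data known.

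Of 55401 identifiers, 55141 matched GENCODE M21 (GRCm38), which gave names, positions and exonic lengths with all transcripts merged. CPM used TMM factors of edgeR 4.0.16, and the counting-noise test ran over genes averaging 10 counts or more. For 17115 genes, counts were simulated with counting error alone. The test then called 85.5% of 200 genes changed 2-fold in 1 library and 0.0414% of the others. The real libraries differ by more than counting error, with 81.5% of genes passing, so that rate of false calls does not carry over to them. Beyond the 10 genes, the rule named the 3 highest genes of each list by CPM per kb, genes at or under 3 counts, the 2 that varied most between libraries (as highest over lowest, where counts averaged 100 or more), genes that form a ratio within a library, *Dlx2*, genes and pseudogenes overlapping or named after the 10, and the 3 genes nearest to *Trp53*. A gene that this rule names is not reported here. Alternatives were DESeq2 1.42.0 size factors, total counts, other filters, thresholds, lengths and pseudocounts, a trend on length and GC content (mgcv 1.9.3), and leaving out each replicate. Scripts ran under R 4.3.3 and Python 3.11.15 (scipy 1.17.1, pandas 2.3.3, numpy 2.4.6). The samples are described as independent RNA samples. The p-values measure only how far the counts of these libraries depart from counting error, not how large the spread between them is. Intervals and limits cover counting error only.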

Additional observations from a re-analysis of the deposited data

How the results depend on the processing

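Across 26 results, 131 values were recomputed with other settings. By the spread between libraries, or by 1.5 times for a count, 122 held and 9 moved. A change of sign was not scored. The median log2 difference of the 10 genes in replicate 1 went from 0.051 to -0.011 with the trend removed. That in replicate 2 went from 0.083 to -0.014 without replicate 3. Both small changes counted as held. Leaving out each replicate in turn, 6 to 10 of the 10 genes differed beyond counting noise, with the lowest count without replicate 3, and their median level ran from 10.6 to 13.2 CPM per kb. With the longest protein-coding transcript as the length, that median was 18.5 CPM per kb in place of 11.7, and the ratios moved to 0.129 (*Mdm2* to *Trp53*), 0.652 (*Mdm4* to *Mdm2*), 0.650 (*Cdkn1a* to *Ccng1*), 1.52 (*Bax* to *Bak1*) and 2.31 (*Mcl1* to *Bcl2l1*). That length also put *Mdm4* above *Ccng1* in the order of levels. Without replicate 1 or 2, *Bbc3* stood above *Mdm4*, and without replicate 3, *Mdm2* above *Bcl2l1*. The median log2 difference of the 10 genes in replicate 3 was -0.33 and moved to -0.0042 once the trend on length and GC content was removed. The 3 libraries share 1 genotype, so no comparison of genotypes was made. Leaving out replicate 1 lowered the mean of *Cdkn1a* from 13.6 to 8.80 CPM. It counted as held, since leaving out 1 of 3 libraries can hardly shift a mean by more than their SD. Mean CPMs and ratios could therefore scarcely fail in that setting, and their holding there says little. No paired analysis was possible because there is 1 group.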

Other observations

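The protein-coding genes whose log2(CPM + 1) over the 3 libraries lay nearest to that of *Trp53*, by Euclidean distance among 14105 genes, were *Rangap1* (0.058), *Sox12* (0.129) and *H2afy2* (0.145). *Rangap1*, which encodes the activator of the nuclear transport GTPase Ran, was at 311, 320 and 357 CPM in replicates 1, 2 and 3, beside 307, 321 and 344 CPM for *Trp53*. With 3 libraries, this likeness is mainly one of level. The processed pseudogene *Mdm4-ps* on chromosome X had 5, 5 and 1 counts, and *Gm29257*, a pseudogene that lies within the span of *Mdm4* without sharing its exons, had 3, 12 and 62 counts.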
